A study of Mus musculus with 8 samples.

Results

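The 10 genes described here govern the passage of a cell through G1, the phase before DNA replication. They were the D-type cyclin genes Ccnd1, Ccnd2 and Ccnd3, the cyclin-dependent kinase genes Cdk4, Cdk6 and Cdk2, the retinoblastoma gene Rb1 and the kinase inhibitor genes Cdkn1b, Cdkn2a and Cdkn2c. They were taken by symbol from a table of 54018 gene identifiers in 8 libraries, and all 10 were found. Of the 10, 9 reached 1 FPKM (a fragment count divided by transcript length and library total) in at least 4 of 8 libraries and entered a test over 12890 genes. Cdkn2a did not, and only its values are given.

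The RNA came from mononuclear cells of the spleen of C57BL/6 mice with leukaemia. All 8 libraries carried Eµ-TCL1A, a transgene whose immunoglobulin enhancer drives the TCL1A oncogene in B cells and gives a disease like chronic lymphocytic leukaemia. In 4 libraries (genotype Kdm1aKD;Eµ-TCL1A, replicates 1, 2, 5 and 4, called knockdown) a doxycycline-inducible construct lowered Kdm1a, a histone lysine demethylase. The other 4 (genotype Eµ-TCL1A, replicates 1 to 4, called control) carried the leukaemia transgene alone. The labels do not give ages, the promoter of the knockdown construct, whether controls received doxycycline, or which library came from which animal, and the p-values below therefore rest on the spread among libraries, which may be partly technical.

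In G1 the D cyclins bind CDK4 or CDK6, and these kinases start the phosphorylation of RB, which in its unphosphorylated form holds back the E2F transcription factors. CDK2, with cyclin E, completes that phosphorylation and drives entry into S phase. Inhibitors of the INK4 family, among them the products of Cdkn2a and Cdkn2c, bind CDK4 and CDK6, while the product of Cdkn1b, known as p27, mainly restrains CDK2. Most cells of chronic lymphocytic leukaemia rest in G0 or early G1, and B cells rely chiefly on cyclins D2 and D3.

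The targeted gene Kdm1a stood at 20.2, 21.0, 15.6 and 15.5 FPKM in knockdown replicates 1, 2, 5 and 4 and at 24.2, 21.2, 24.1 and 31.1 FPKM in control replicates 1 to 4, without overlap but with a limma adjusted p of 0.223. The B cell markers were present in all libraries, with none of 8 under 13.2 FPKM. All 8 were lower in the knockdown libraries (median log2 difference −0.66), none with a limma adjusted p under 0.05. Their level, the mean of log2(FPKM + 1), was 6.55 to 8.06 in the knockdown libraries and 8.07 to 8.24 in the controls. Knockdown replicate 4 stood apart, with the lowest B cell level (6.55 against 7.87 to 8.24 elsewhere, as the mean of log2(FPKM + 1)) and the highest erythroid level (9.20 against 4.93 to 6.77). By Xist and the Y-linked gene Ddx3y, all knockdown libraries and control replicate 1 were female and the other 3 controls male, so effects of sex and of group cannot be told apart beyond that 1 control. Estimated depth lay between 37300000 and 43800000 fragments. In bulk RNA of this kind, more cells of a type and more RNA per cell cannot be told apart.

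Cdk6 rose, and it was the 1 of the 9 tested genes whose adjusted p fell under 0.05. The test was limma on the scale log2(FPKM + 1), on which 1.74% of all genes tested were called, 1.63% as higher and 0.109% as lower in the knockdown libraries. Cdkn2c and Cdk4 had the next largest differences, both positive and neither past the threshold. In Cdk6, Cdkn2c and Cdk4 every knockdown library lay above every control, and 11.2% of all genes tested lay apart in that direction and 1.9% in the other. These 3 genes also had an unadjusted p under 0.05, as did 15.8% of all genes tested with higher and 3.41% with lower values in the knockdown libraries. The other 6 tested genes, with log2 differences from −0.08 to 0.52, had overlapping groups. The median log2 difference was 0.36 over the 9 genes and 0.13 over all genes tested.

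**Figure D1:**
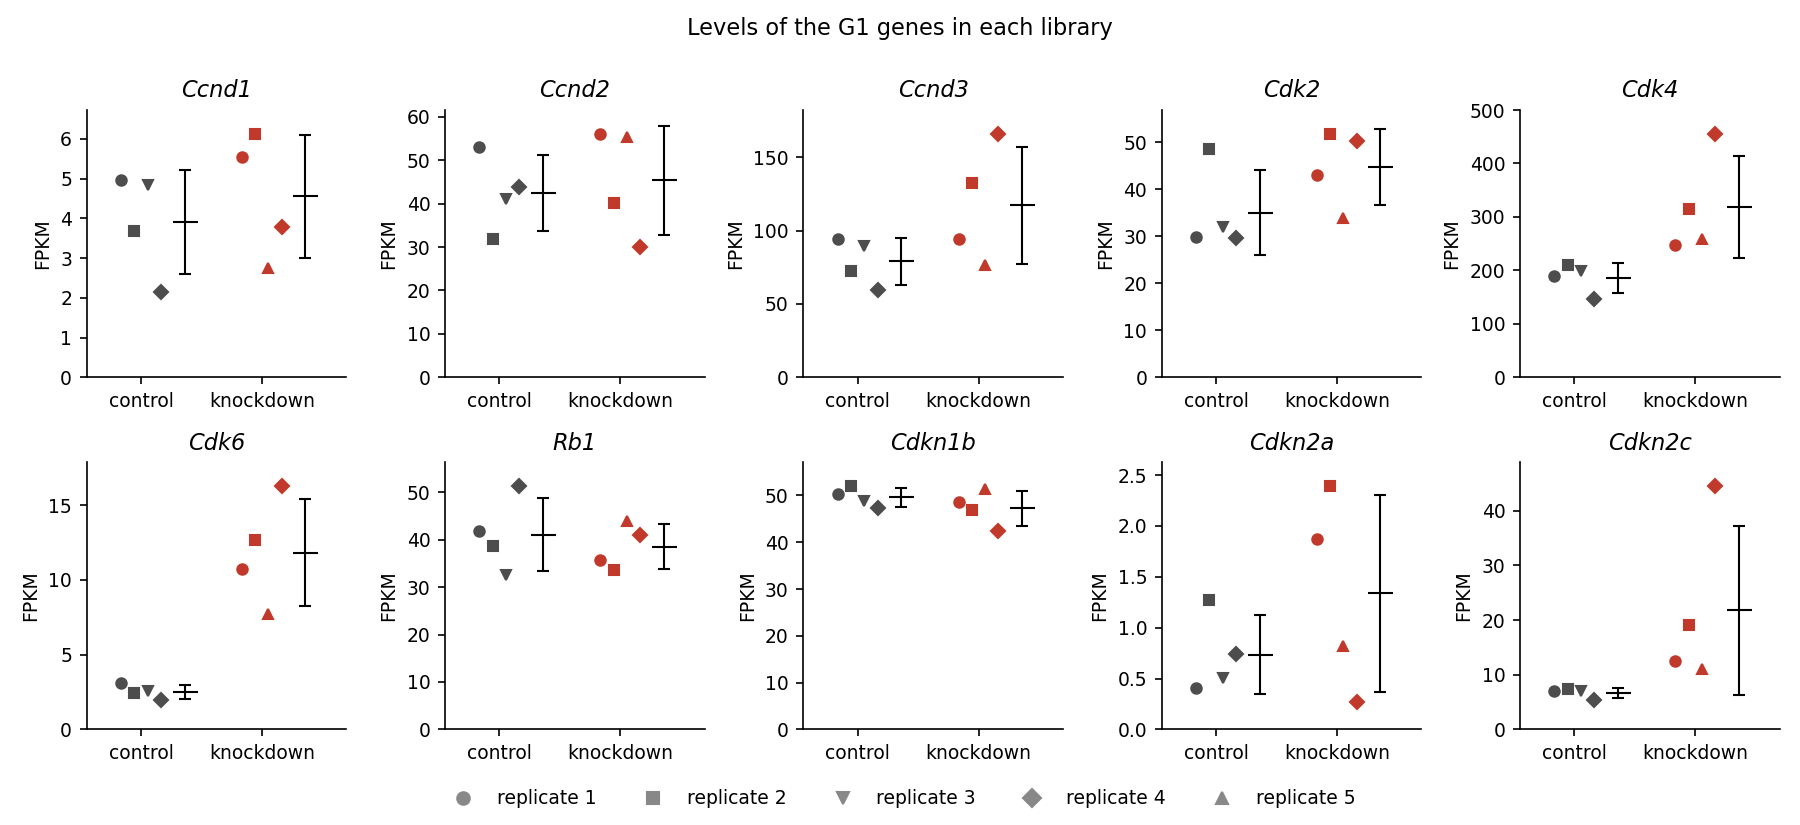
FPKM (vertical axis, from 0) of each of the 10 genes in the 4 control and 4 knockdown libraries, with a symbol for each replicate number and the mean and SD of each group beside the points. The knockdown points of Cdk6 (7.69 to 16.2 FPKM) lie above all controls (1.94 to 3.12 FPKM), as do those of Cdk4 and Cdkn2c, while the points of Cdkn1b lie between 42.3 and 51.9 FPKM in both groups.

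The stretches of 250 bases before the RefSeq start (GRCm38.p6) of Cdk4, Cdk6 and Cdkn2c are shown because these are the genes whose groups did not overlap. They are read 5′ to 3′ toward the gene. The capitals mark each E-box CACGTG, a site type of the MYC family, and each GC box GGGCGG, a site type of SP1, found by letter match on both strands. The stretches are chr10:127063285-127063534 (plus strand) for Cdk4, chr5:3343643-3343892 (plus strand) for Cdk6 and chr4:109666757-109667006 (minus strand, the outer of 2 listed starts) for Cdkn2c. Those of Cdk6 and Cdkn2c lie inside the genes by the GENCODE coordinates printed below, whose outermost starts differ from the RefSeq starts used here.
Cdk4: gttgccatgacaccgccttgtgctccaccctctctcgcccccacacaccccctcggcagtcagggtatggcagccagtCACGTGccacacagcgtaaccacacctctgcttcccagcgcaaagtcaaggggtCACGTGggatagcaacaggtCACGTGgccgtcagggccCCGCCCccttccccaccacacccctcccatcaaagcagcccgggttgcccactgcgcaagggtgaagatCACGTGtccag
Cdk6: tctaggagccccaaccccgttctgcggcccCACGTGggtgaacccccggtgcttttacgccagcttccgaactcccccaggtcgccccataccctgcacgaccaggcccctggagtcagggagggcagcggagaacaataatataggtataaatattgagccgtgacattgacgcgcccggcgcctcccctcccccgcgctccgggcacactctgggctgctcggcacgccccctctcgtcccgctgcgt
Cdkn2c: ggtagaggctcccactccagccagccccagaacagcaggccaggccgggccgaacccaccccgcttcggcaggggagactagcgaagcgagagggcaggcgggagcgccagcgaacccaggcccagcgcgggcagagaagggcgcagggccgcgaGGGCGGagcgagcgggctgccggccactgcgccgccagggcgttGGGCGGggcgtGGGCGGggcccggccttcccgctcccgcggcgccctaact

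The Cdk4 stretch held 4 E-boxes, at 172, 118, 98 and 11 bases before the start, and 1 GC box at 80 bases. Of 32851 listed promoters cut to the same length, 6.02% held an E-box and 7 promoters, or 0.0213%, held at least 4. The Cdk6 stretch held 1 E-box, 220 bases before the start, and no GC box. The Cdkn2c stretch held 3 GC boxes, at 95, 51 and 40 bases, and no E-box, and 32.7% of listed promoters held a GC box. None of these 3 stretches held the E2F letters TTTCCCGC or TTTGGCGC, which 1.30% of listed promoters did, nor the GFI letters AATCAC (9.14%) or the GATA letters AGATAA (9.99%). No 2 of the marked matches overlapped. Promoters were listed for 7 of the 10 genes. The letters TTTCCCGC were found in that of Cdk2, 140 bases before the start. They were also found in the outer of 2 listed for Cdkn2a, at 99 bases, and not in the inner.

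Cdk6 (ENSMUSG00000040274, chromosome 5, 3341485 to 3531008, plus strand, GRCm38) encodes a D cyclin kinase with a prominent part in blood cells and their progenitors. It had 10.7, 12.6, 7.69 and 16.2 FPKM in knockdown replicates 1, 2, 5 and 4. In control replicates 1 to 4 it had 3.12, 2.41, 2.57 and 1.94 FPKM. The lowest knockdown library stood 2.47-fold above the highest control, so the groups were well apart. The knockdown mean of 11.8 ± 3.58 FPKM was 4.71 times the control mean of 2.51 ± 0.486 FPKM (SD, n = 4). The log2 difference was 1.84 ± 0.23 (SE), with a 95% interval of 1.32 to 2.36 and an adjusted p of 0.0111 in limma over all genes. By its p, Cdk6 ranked 17 of 12890 genes. Of 22 alternatives, the fit with sex as a covariate was read for its difference only. The call was lost in 5 of the others. Among them were the fits without knockdown replicate 2 (1.79, adjusted p = 0.0548) or control replicate 4 (1.75, adjusted p = 0.0617), with no filter on low values (adjusted p = 0.0917) and with the level of S phase and mitosis markers as a covariate (1.44, adjusted p = 0.0862). It held without replicate 4 of both groups (1.60, adjusted p = 0.0270).

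Cdk4 (ENSMUSG00000006728, chromosome 10, 127063534 to 127067920, plus strand) encodes the other partner of the D cyclins and was the most abundant of the 10 transcripts per length in every library. It had 248, 314, 259 and 455 FPKM in knockdown replicates 1, 2, 5 and 4 against 190, 209, 199 and 146 FPKM in control replicates 1 to 4. All knockdown libraries lay higher, though the lowest was only 1.19 times the highest control. The means were 319 ± 95 and 186 ± 28.0 FPKM (SD, n = 4). The log2 difference of 0.74 ± 0.24 (SE) had a 95% interval of 0.22 to 1.27 and did not pass in limma (adjusted p = 0.149). Exons of Cdk4 overlap those of Tspan31 on the opposite strand, which had at most 43.3 FPKM. Whether the counting used strand is not given, so part of the Cdk4 value may belong to that gene.

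Because FPKM is per length, the share of Cdk6 in the sum of Cdk4 and Cdk6 can be read within each library, free of its scaling. That share was 4.14%, 3.87%, 2.89% and 3.45% in knockdown replicates 1, 2, 5 and 4. It was 1.62%, 1.14%, 1.27% and 1.31% in control replicates 1 to 4, so that the groups did not overlap. The mean share was 3.59 ± 0.547% against 1.34 ± 0.20% (SD, n = 4). Cdk4 transcripts thus made up by far the larger part in both groups.

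Cdk2, whose product acts later in G1 with cyclin E, stood at 43.0, 51.6, 33.9 and 50.2 FPKM in knockdown replicates 1, 2, 5 and 4. Control replicates 1 to 4 stood at 29.9, 48.5, 31.9 and 29.6 FPKM. Control replicate 2 reached the level of the higher knockdown libraries. On the log2 scale Cdk2 differed by 0.36, with an interval (95%) from −0.12 to 0.84 (limma adjusted p = 0.381).

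**Figure D2:**
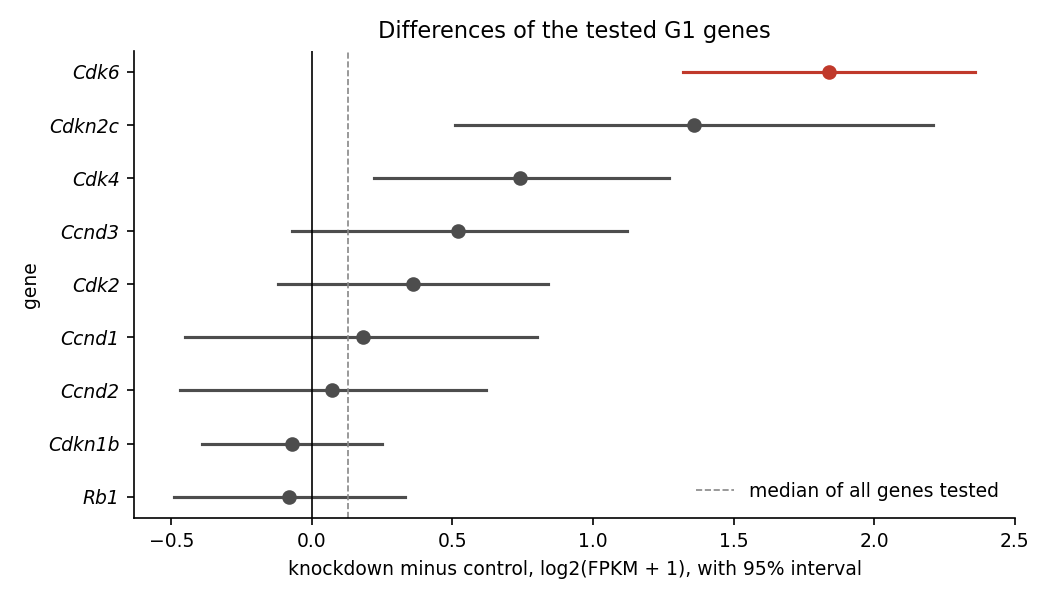
Difference between knockdown and control in log2(FPKM + 1) (horizontal axis) for the 9 tested genes, with the 95% interval of the fit as a line, red where the adjusted p is under 0.05. Cdk6 stands at 1.84, the intervals of Cdkn2c and Cdk4 lie above 0, and those of the other 6 genes include 0; the dashed line is the median of all genes tested, 0.13.

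The D cyclins had overlapping groups, and none passed. Ccnd3 (ENSMUSG00000034165, chromosome 17, 47505051 to 47599691, plus strand), the most abundant of them, had 94.6, 133, 76.3 and 166 FPKM in knockdown replicates 1, 2, 5 and 4. In control replicates 1 to 4 it had 94.2, 72.7, 89.3 and 59.7 FPKM. Knockdown replicates 2 and 4 were higher than any control, replicate 1 was level with the highest control, and replicate 5 lay among the controls. The fitted log2 difference of 0.52 had a 95% interval from −0.07 to 1.12 (limma adjusted p = 0.311).

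Ccnd2 ranged from 30.0 to 56.0 FPKM in knockdown and from 31.8 to 52.9 FPKM in control libraries. Its log2 difference of 0.07 had a 95% interval of −0.47 to 0.62 (limma adjusted p = 0.889), and the sign was negative after scaling that centres all genes (−0.09). Ccnd1, the cyclin made under the translocation of mantle cell lymphoma, was low, with 2.75 to 6.11 against 2.16 to 4.97 FPKM. On the log2 scale Ccnd1 differed by 0.18, with an interval (95%) of −0.45 to 0.80 (limma adjusted p = 0.748). Exons of Ccnd1 overlap an opposite gene of up to 11.6 FPKM and those of Ccnd3 overlap Bysl, of up to 27.2 FPKM, so both values are less certain.

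Within the sum of the D cyclins, Ccnd3 made up 68.6 ± 12.2% in the knockdown libraries and 62.9 ± 4.85% in the controls (SD, n = 4). Its share was 60.6%, 74.2%, 56.8% and 83.1% in knockdown replicates 1, 2, 5 and 4, against 56.5% to 67.2% in the controls. Knockdown replicates 2 and 4 were above the control range and the other 2 within it. Ccnd2 supplied nearly all of the rest, with 15.0% to 41.2% against 29.4% to 41.5%. The summed D cyclins stood at 52.0 ± 7.57% of the summed Cdk4 and Cdk6 in the knockdown libraries and at 67.1 ± 11.7% in the controls, and these ranges overlapped.

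**Figure D3:**
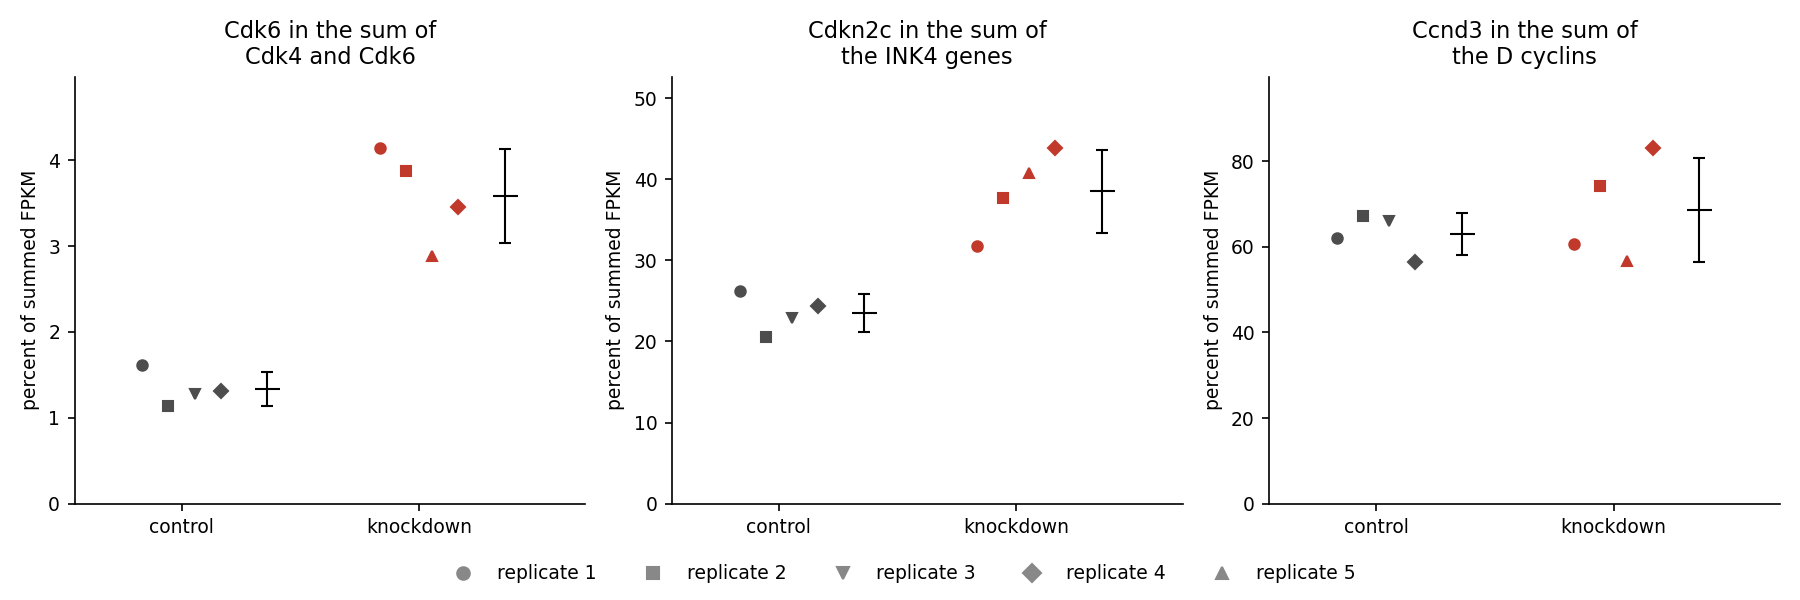
Share of 1 gene in the summed FPKM of its family (vertical axes, percent, from 0) in each library, with the mean and SD of each group beside the points. The shares of Cdk6 (2.89% to 4.14% against 1.14% to 1.62%) and of Cdkn2c (31.8% to 43.8% against 20.6% to 26.2%) do not overlap between the groups, and that of Ccnd3 does.

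Rb1, which encodes the protein that the G1 kinases phosphorylate, had similar values in both groups. Its range was 33.6 to 44.0 FPKM in knockdown and 32.6 to 51.2 FPKM in control libraries, a log2 difference of −0.08 with a 95% interval of −0.49 to 0.33 (limma adjusted p = 0.832). Cdk6 transcripts stood at 30.1%, 37.7%, 17.5% and 39.7% of the Rb1 level in knockdown replicates 1, 2, 5 and 4, and at 3.79% to 7.87% in the controls. Exons of Rb1 overlap 2 coding genes on the opposite strand, Rcbtb2 (up to 28.2 FPKM) and Lpar6 (up to 6.16 FPKM).

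Cdkn2c (ENSMUSG00000028551, chromosome 4, 109660876 to 109667189, minus strand) encodes the INK4 inhibitor p18, which binds CDK4 and CDK6. Knockdown replicates 1, 2, 5 and 4 had 12.5, 19.1, 11.0 and 44.4 FPKM. The controls lay close together, at 7.03, 7.40, 7.01 and 5.33 FPKM in replicates 1 to 4. Every knockdown library was higher, and knockdown replicate 4 had 4.03 times the level of knockdown replicate 5. The means were 21.8 ± 15.5 and 6.69 ± 0.927 FPKM (SD, n = 4). The log2 difference of 1.36 ± 0.38 (SE) had a 95% interval of 0.51 to 2.21 and an adjusted p of 0.115 in limma. It was 0.86 without replicate 4 of both groups (limma adjusted p = 0.121). It passed at 1.08 (limma adjusted p = 0.0288) with array weights, which count a library less the more it deviates in these same data. The weights of replicate 4 were the lowest, 0.271 in knockdown and 0.265 in control.

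The INK4 genes were compared within their sum, again per length. Cdkn2c made up 31.8%, 37.6%, 40.8% and 43.8% of the summed INK4 transcripts in knockdown replicates 1, 2, 5 and 4. In control replicates 1 to 4 it made up 26.2%, 20.6%, 22.9% and 24.4%, without overlap. Cdkn2d, which encodes the INK4 protein p19, was the most abundant of the 4 in every library and had 14.4 to 55.3 FPKM against 15.2 to 25.3 FPKM. Its share was 55.4 ± 3.60% in the knockdown libraries and 69.8 ± 2.59% in the controls (SD, n = 4). The summed INK4 transcripts stood at 15.6 ± 4.65% of the summed Cdk4 and Cdk6 in the knockdown libraries and at 15.2 ± 1.30% in the controls.

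Cdkn2a, a locus that encodes the INK4 inhibitor p16 and, in another reading frame from another first exon, the ARF protein that acts on p53, was the lowest of the 10 genes. It had 1.87, 2.39, 0.817 and 0.273 FPKM in knockdown replicates 1, 2, 5 and 4 and 0.410, 1.28, 0.504 and 0.745 FPKM in control replicates 1 to 4. Knockdown replicate 4 was below all controls and knockdown replicates 1 and 2 above them. These values correspond to about 12 to 93 fragments per kilobase of transcript, the lowest numbers of the 10 genes, and counting error is largest here. A value per gene does not tell the p16 and ARF transcripts apart.

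Cdkn1b, which encodes p27, was the steadiest of the 10. It had 48.5, 46.8, 51.3 and 42.3 FPKM in knockdown replicates 1, 2, 5 and 4 and 50.2, 51.9, 48.9 and 47.3 FPKM in control replicates 1 to 4. On the log2 scale Cdkn1b differed by −0.07, with an interval (95%) of −0.39 to 0.25 (limma adjusted p = 0.804). In the controls Cdkn2c stood at 11.3% to 14.3% of the Cdkn1b level. In the knockdown libraries it stood at 25.7%, 40.8%, 21.5% and 105% in replicates 1, 2, 5 and 4.

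By level per length in the controls the order was Cdk4, Ccnd3, Cdkn1b, Ccnd2, Rb1, Cdk2, Cdkn2c, Ccnd1, Cdk6 and Cdkn2a. Neighbours from Cdkn1b to Cdk2, and Ccnd1 with Cdk6, had overlapping ranges over the 4 libraries. In the knockdown libraries Cdk6 stood before Ccnd1, at 11.8 against 4.55 FPKM, and these ranges did not overlap. There Cdk2 stood before Rb1, within their ranges.

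Levels of proliferation and progenitor markers, each the mean over a list, lay higher in every knockdown library than in any control. Their part in these differences therefore cannot be told apart from that of group. The level of 20 S phase and mitosis markers was 5.20, 5.89, 5.43 and 6.90 in knockdown replicates 1, 2, 5 and 4 and 4.82 to 5.12 in the controls, as the mean of log2(FPKM + 1). The level of the 4 tested progenitor markers of 5 (Kit, Gata2, Sox4 and Myb) was 4.01, 4.25, 3.12 and 4.14 against 2.07 to 2.55. Of single markers, none of the 20 for S phase and mitosis passed in limma (smallest adjusted p = 0.13). Of the 4 progenitor markers 2, Kit and Sox4, rose, and Myb had 52.5 against 52.0 FPKM. Sox4, at 0.333 to 0.809 FPKM in the controls, entered the test only through the knockdown libraries. The progenitor level includes Sox4, so part of its gap between the groups rests on that filter. Of the others, Kit had 8.85 to 20.2 against 2.62 to 5.85 FPKM. Gata2 had 2.60 to 12.3 against 0.730 to 1.91 FPKM, while the groups of Myb overlapped. Cdk6, Cdkn2c and Cdk4 were all highest, as the proliferation level was, in knockdown replicate 4. That library also had the highest erythroid level (9.20) and the lowest B cell level (6.55), and these cannot be told apart within 1 library. Knockdown replicate 1 was nearest to the controls in proliferation level, and its B cell level of 8.06 was next to the 8.07 to 8.24 of the controls. It was not near them in the progenitor level, Sox4 included (4.01, highest control 2.55), or the megakaryocyte level (3.13, highest control 1.84). Against the highest control, knockdown replicate 1 had 3.44 times the level of Cdk6, 1.69 times that of Cdkn2c and 1.19 times that of Cdk4. These are values of 1 library, and no cause was tested with them.

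With the S phase and mitosis level as a covariate, the log2 difference was 1.44 for Cdk6 (limma adjusted p = 0.0862), 0.33 for Cdkn2c (adjusted p = 0.976) and 0.25 for Cdk4 (adjusted p = 1.0). With the B cell level as a covariate it was 1.63 for Cdk6 (limma adjusted p = 0.0248), 0.80 for Cdkn2c (adjusted p = 0.288) and 0.49 for Cdk4 (adjusted p = 0.475). In every knockdown library the S phase and mitosis level was above all controls and the B cell level below them. Neither fit can therefore separate its level from group. With the erythroid level as a covariate Cdk6, Cdk4 and Cdkn2c passed at the same differences as without it. The group means of that level were nearly equal although its 12 markers differed in sign, 6 positive and 6 negative, with log2 differences from −1.77 (Hbb-bt, a globin gene) to 2.71 (Gata1). Gata1, the erythroid transcription factor gene, rose from 6.14 to 58.2 FPKM (limma adjusted p = 0.0254). Monocyte and macrophage markers were at 4.17 to 4.83 against 2.69 to 3.68. T cell markers were at 4.20 to 5.40 against 3.63 to 5.25. Megakaryocyte markers, 5 tested of 7, were at 2.05 to 3.13 against 1.12 to 1.84. Of these 5, 4 had positive log2 differences, and Ppbp had a negative one (−0.63, 0.916 against 2.05 FPKM). Plasma cell markers were at 4.83 to 5.79 against 5.52 to 6.82, with negative log2 differences in 6 of 6, none past the threshold. Of 7 neutrophil markers the granule genes Camp, Ngp and Ltf fell, Camp from 11.6 to 0.372 FPKM (limma adjusted p = 0.0132). Camp, at 0.0869 to 0.749 FPKM in the knockdown libraries, entered the test only through the controls. Mpo had 19.1 against 3.42 FPKM (adjusted p = 0.0830). No marker of these lists was at 0 in any library.

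**Figure D4:**
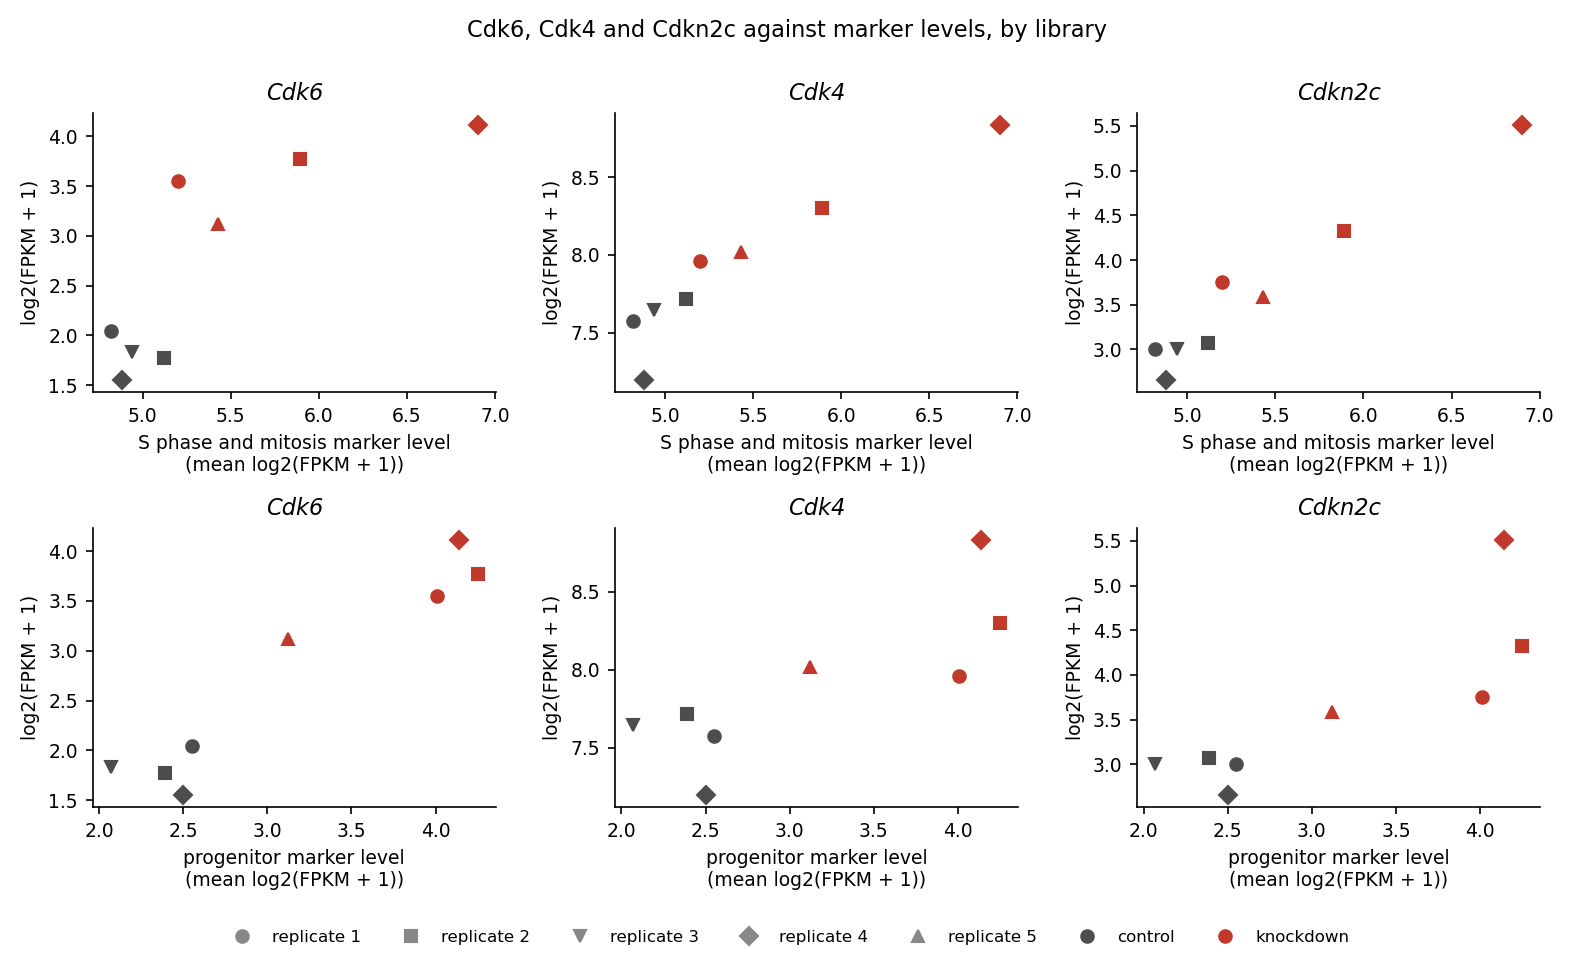
Level of Cdk6, Cdk4 and Cdkn2c in log2(FPKM + 1) (vertical axes) against the mean log2(FPKM + 1) of S phase and mitosis markers (upper row) or progenitor markers (lower row) in each of the 8 libraries, red for knockdown and grey for control. Knockdown replicate 1 is at a proliferation level of 5.20 against at most 5.12 in the controls, and at a progenitor level, Sox4 included, of 4.01 against at most 2.55. It stands well above the controls in Cdk6 (10.7 against at most 3.12 FPKM) and closer to them in Cdk4, and the cause was not tested.

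Genes with the most similar pattern over the 8 libraries were sought for Cdkn2c, Cdk6 and Cdk4, the tested members with the widest range, as the smallest mean absolute difference between centred log2(FPKM + 1) profiles. For Cdk6 they were Arl11, which encodes a small GTPase of the ARF-like family (distance 0.107; 5.43 against 0.687 FPKM), Fnbp1l (0.109; 3.20 against 0.265 FPKM) and Ctnnd1, the gene of the cadherin-binding p120 catenin (0.112; 5.91 against 1.21 FPKM). Arl11, at 0.318 to 0.923 FPKM in the controls, and Fnbp1l, at 0.203 to 0.340 FPKM, passed the filter only through the knockdown libraries. The median distance of all named coding genes from Cdk6 was 0.849. For Cdkn2c they were Slc51a (0.080), Hcn3 (0.113) and Emilin2 (0.115), with a median distance of 0.655. For Cdk4 they were Get4 (0.057), the respiratory complex I gene Ndufv1 (0.060) and Nudt1, which encodes a hydrolase of oxidised nucleotides (0.061), with a median distance of 0.379.

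Around these 10 genes, 7 lists of further G1 and S phase genes held 63 genes in the table, of which 61 were tested. None of the 61 passed in limma, while 25 had an unadjusted p under 0.05, as did 19.2% of all genes tested. Positive log2 differences were found for 51 of the 61, against 63.7% of all genes tested, and in 13 the knockdown libraries lay wholly above the controls, against 11.2% of all genes tested. Their median log2 difference was 0.46. Skp1 was taken under its older symbol Skp1a, and Fbxo31 and Cdt1 were not analysed here.

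All 14 tested E2F target genes of S phase had positive log2 differences, against 63.7% of all genes tested, with a median of 0.96. Mcm2 to Mcm7, Pcna, Cdc6, Tyms and Rrm2 of this list are also among the S phase and mitosis markers above, so these lists are not independent. In 7 of the 14 the knockdown libraries lay wholly above the controls, against 11.2% of all genes tested. Tk1, the thymidine kinase gene, had 47.9, 81.9, 54.7 and 173 FPKM in knockdown replicates 1, 2, 5 and 4 and 24.1 to 33.7 FPKM in the controls (log2 difference 1.43, limma adjusted p = 0.0855). Pola1, of DNA polymerase alpha, and Mcm7, of the replicative helicase, had log2 differences of 1.01 and 0.98. Without replicate 4 of both groups all 14 stayed positive, with a median of 0.52.

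The 4 tested genes of the E- and A-type cyclins and their kinase also had positive values (63.7% of all genes tested did), with a median of 1.04. Cdk1, the mitotic kinase gene, had a log2 difference of 1.16 (limma adjusted p = 0.194), Ccna2, cyclin A2, one of 1.07, and Ccne2, cyclin E2, one of 1.02. Of these 4, only Ccna2 had groups that did not overlap, with knockdown higher, against 11.2% of all genes tested. The median of these 4 was 0.52 without replicate 4 of both groups.

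Of the RB family and the E2F factors all 12 had positive log2 differences, against 63.7% of all genes tested. Their median was 0.43 (10 of 12 positive and 0.36 without replicate 4 of both groups). Rbl1, which encodes the RB relative p107, had 14.8 to 23.7 against 10.9 to 13.2 FPKM, a log2 difference of 0.56 (limma adjusted p = 0.145). Tfdp1, the dimer partner of E2F factors, had 0.74 and the repressor E2f8 1.03 on the same scale. Of the 12, the groups of Rbl1 and Tfdp1 did not overlap, with knockdown higher, against 11.2% of all genes tested.

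Among the genes of the CDK-activating kinase and of CDK phosphorylation all 7 had positive log2 differences, against 63.7% of all genes tested. Their median was 0.45. Cdc25a, a phosphatase gene of the G1 to S step, had 10.4 to 19.9 against 7.06 to 9.31 FPKM, a log2 difference of 0.74 (limma adjusted p = 0.129). Cdc25c had 0.85 and Cdk7, the CDK-activating kinase gene, 0.52. Without replicate 4 of both groups, 4 of the 7 were positive and the median was 0.11.

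In the list of turnover and folding of G1 regulators 7 of 10 had positive log2 differences, against 63.7% of all genes tested, with a median of 0.22. Skp2, whose product marks p27 for destruction, had 3.76 to 8.49 against 2.81 to 4.51 FPKM, a log2 difference of 0.69 (limma adjusted p = 0.174). Its cofactor gene Cks1b had 0.94 and Skp1a 0.51. The remaining inhibitors Cdkn1a (0.23), Cdkn2d (0.42) and Cdkn2b (0.10) did not pass, and Cdkn1c, at 0.0261 to 0.405 FPKM, was not tested. Without replicate 4 of both groups 1 of these 3 tested inhibitors was positive.

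Regulators of the INK4/ARF locus and of D cyclins had a median of −0.13, with 4 of 11 positive, against 63.7% of all genes tested. Ezh2, the Polycomb methyltransferase that represses that locus, had 46.3, 70.0, 46.7 and 113 FPKM in knockdown replicates 1, 2, 5 and 4 and 26.7, 28.3, 30.1 and 28.6 FPKM in control replicates 1 to 4. All knockdown libraries were higher, with a log2 difference of 1.15 ± 0.27 (SE; limma adjusted p = 0.0732). Trp53, the p53 gene, had 0.38 and Foxo1, a transcription factor gene that favours quiescence, −0.45, both with overlapping groups. Without replicate 4 of both groups 7 of these 11 were positive.

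**Figure D5:**
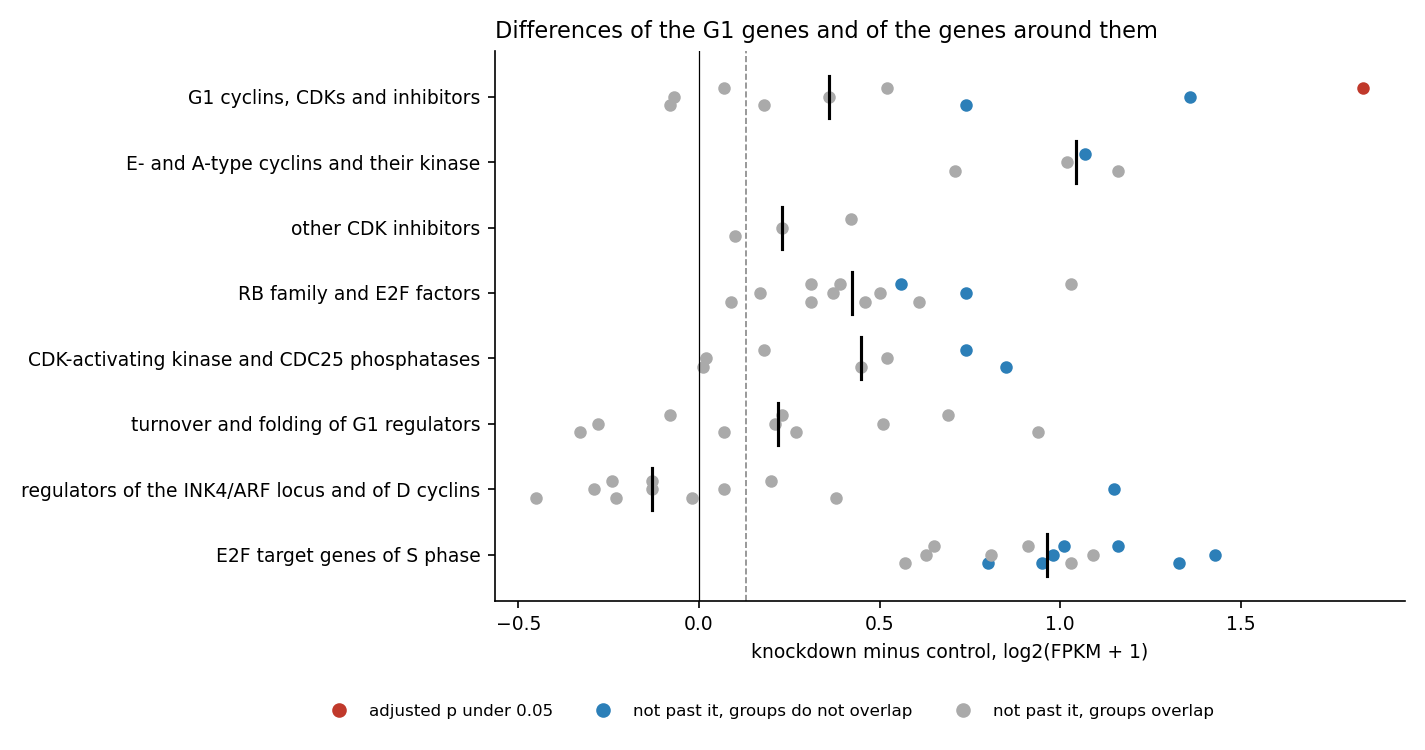
Difference between knockdown and control in log2(FPKM + 1) (horizontal axis) of each tested gene of the 10 genes described and of the 7 lists around them, with the list median as a black bar and the median of all genes, 0.13, as a dashed line. Only Cdk6 (red, 1.84) passes an adjusted p of 0.05; blue points are genes whose groups do not overlap.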

How the data were processed

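Values were FPKM in 1 table, as the authors deposited them, with 1 column per library. CASAVA and Cufflinks are named in the submitters' processing notes. Which aligner, build and annotation were used, and whether strand was, is not given in the sources used here. GENCODE M21 (GRCm38) named 53865 of 54018 identifiers, and its coordinates are printed. Genes that reached 1 FPKM in 4 or more of 8 libraries were tested on log2(FPKM + 1), knockdown against control (n = 4 each), with limma 3.58.1 (R 4.3.3, mean-variance trend, no covariate). P-values were adjusted by Benjamini-Hochberg over all 12890 genes, with calls under 0.05. Fold changes on this scale understate those of low genes. The fit was tested on simulated data. Steps between low values of long transcripts gave the estimated depth, and of those values 85.1% to 96.2% per library lay within 5% of whole multiples. The 10 genes and all lists were chosen with earlier results of these data known. Named beside them were Kdm1a, the 3 smallest p of each list, as none of a list passed, and the 3 nearest profiles of 3 members. Shares and overlaps of groups have no test. Motif letters were chosen after the results were seen. Alternatives changed the pseudocount, the filter on low values, scaling, test, libraries and covariates. Tables were made in pandas 2.3.3 and numpy 2.4.6 under Python 3.11.15, and plots in matplotlib 3.10.9.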

Additional observations from a re-analysis of the deposited data

Results flagged for a closer look

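Within a group of 4 libraries, 3 of the 64 groups examined (32 genes in 2 groups) had a library far from the other 3, where chance gives about 1 in 20. Cdk2 had 48.5 FPKM in control replicate 2 and 29.6 to 31.9 FPKM in the other controls. Tfdp1 had 47.1 FPKM in control replicate 4 against 38.5 to 39.6 FPKM, and E2f8 had 17.0 FPKM in the same library against 5.02 to 7.01 FPKM.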

How the results depend on the processing

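The 224 genes called over the whole table were 242 and 24 with a pseudocount of 0.1 and 5, 2 with no filter, 71 at a mean of at least 5 FPKM, 152 and 126 after median-of-ratios scaling and quantile normalization, 761 with array weights, 221 without a trend, 120 without replicate 4 of both groups, 87, 1238 and 23 with the B cell, erythroid or S phase and mitosis level as covariate, and between 8 and 333 with 1 library left out. The count of 1 among the 10 genes was 0 with no filter and with the S phase and mitosis covariate, 2 with array weights, 3 with the erythroid covariate, and between 0 and 1 with 1 library left out. The count of 0 among the 61 surrounding genes was 3 with array weights (E2f8, Ezh2 and Tk1), 19 with the erythroid covariate, and between 0 and 2 with 1 library left out. In limma with the replicate block, 0 genes were called over the whole table (2085 at an unadjusted p under 0.05) and 0 of the 10, and Cdk6 had 2.02 (adjusted p = 0.113). Same-numbered libraries deviated together with r = 0.163, 0.047 and −0.118 for numbers 1, 2 and 4, and of these only number 1 correlated best with its own number, so the numbers were not taken to pair libraries. The difference of Cdk6 lay between 1.14 and 2.16 over 22 alternatives and lost its call in 5 (no filter, the replicate block, the S phase and mitosis covariate, and without knockdown replicate 2 or control replicate 4). Cdkn2c lay between 0.33 and 1.62 and Cdk4 between 0.25 and 0.87, both always positive, as were Ccnd3 and Cdk2. Signs turned only in genes near 0. Ccnd1 had −0.01 after quantile normalization, −0.15 with sex as a covariate and −0.02 to 0.35 with 1 library left out. Ccnd2 had −0.09 and −0.08 after median-of-ratios scaling and quantile normalization, −0.04 with the replicate block, −0.26 with sex as a covariate and −0.05 to 0.25 with 1 library left out. Rb1 had −0.18 to 0.03 with 1 library left out and Cdkn1b 0.05 with the S phase and mitosis covariate. With sex as a covariate, where the control side is control replicate 1 alone, Cdk6 had 1.60, and no call was read from that fit. The causes of these changes were not tested. No value of the 10 genes was exactly 0, so the alternative for such values gave none.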
